A study of Mus musculus with 12 samples.

Results

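The G1 control genes described here are 10 genes of the D cyclin, CDK inhibitor and retinoblastoma (RB) pathway: *Ccnd1*, *Ccnd2*, *Ccnd3*, *Cdkn1a*, *Cdkn1b*, *Cdkn2c*, *Rb1*, *Rbl1*, *Rbl2* and *E2f1*. They were chosen by name for their roles, with earlier results of these data known, and were matched by mouse symbol to Ensembl identifiers. All 10 were found among the 55450 genes of the count table, and all 10 had enough reads to be tested, with 32 to 26985 reads per library. RNAseq was performed on tibialis anterior (TA), a muscle of the anterior shin, from wild-type (WT) mice on the 129Pas genetic background, as the labels spell it. The mice were in late gestation (E18.5) or aged 2 weeks (wks) or 7 wks, and each of the 12 libraries came from a different mouse (n = 4 mice/age). No treatment or mutation distinguished the groups, and age was the only condition compared. RNA was extracted from the tissue, so every cell type of the TA could contribute. In such bulk samples, fewer cells of a type and less RNA per cell cannot be told apart.

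D-type cyclins bind the kinases CDK4 and CDK6 and start the phosphorylation of the pocket proteins, which are RB (*Rb1*), p107 (*Rbl1*) and p130 (*Rbl2*). Unphosphorylated pocket proteins hold E2F transcription factors in check, and their phosphorylation frees E2F1 and its relatives to switch on the genes of DNA replication. The inhibitors p21 (*Cdkn1a*), p27 (*Cdkn1b*) and p18 (*Cdkn2c*) oppose the cyclin-dependent kinases. In skeletal muscle, myoblasts divide before and shortly after birth, whereas nuclei inside muscle fibers have left the cell cycle for good. In myoblasts that differentiate in culture, p21, RB and cyclin D3 are well known to accumulate, and p130 is the pocket protein typical of quiescent cells.

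Library totals over genes ran from 63018968 to 123449246 reads. Levels are given as CPM, the share of a gene in the library's reads with the library size scaled by the trimmed mean of M values (TMM), and changes as log2 fold changes from the quasi-likelihood test of edgeR with Benjamini-Hochberg adjustment over the 19276 genes tested. The composition of the libraries moved with age. Reads of mitochondrially encoded genes made up 3.27 to 7.58% at E18.5 and 7.81 to 10.3% at 2 wks, and by 7 wks 12.9 to 16% of a library, and the TMM factors fell from 1.62 to 1.77 at E18.5 to 0.667 to 0.699 at 7 wks. With scaling to the total count instead, the median log2 fold change of all genes tested went from -0.09 to -1.02 for 2 wks against E18.5, from -0.03 to -0.38 for 7 wks against 2 wks, and from -0.09 to -1.36 for 7 wks against E18.5. Changes are therefore also given below relative to the median of all genes, and as ratios within a library, which no scaling alters. A scaling moves a gene and the median by nearly the same amount. Values relative to the median thus agree between scalings by construction, and this agreement is no check of a change. All 7 muscle fiber markers (*Ckm*, *Acta1*, *Ttn*, *Mylpf*, *Tnnt3*, *Actn2* and *Pygm*) were detected in all libraries. They mark skeletal muscle but cannot single out the TA. The sum of the 7 rose from 12775 to 22890 CPM at E18.5 to 114943 to 141902 CPM at 2 wks. Some E18.5 libraries were high in markers of other tissues, as given below.

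From E18.5 to 2 wks, 7 of the 10 G1 control genes fell (*Ccnd2*, *Ccnd3*, *Cdkn1a*, *Cdkn2c*, *Rb1*, *Rbl1* and *E2f1*), 0 rose, and *Ccnd1*, *Cdkn1b* and *Rbl2* did not pass the threshold (adjusted p under 0.05). Of all genes tested, 34.2% fell and 31.5% rose in this comparison. From 2 to 7 wks, 5 genes fell (the 3 D cyclins, *Rbl1* and *E2f1*) and *Rbl2* rose, against 13.9% of all genes that fell and 13.5% that rose. From E18.5 to 7 wks, 8 genes fell, *Rbl2* rose and *Cdkn1b* did not pass, against 37.1% lower and 34.3% higher among all genes. The medians over the 10 genes were -0.92, -0.65 and -1.66 on the log2 scale, beside -0.09, -0.03 and -0.09 for all genes. With total count scaling, 10 of the 10 fell by 2 wks, while the calls over all genes shifted from 6074 higher and 6594 lower to 2550 higher and 11923 lower. In that scaling 6 fell and *Rbl2* rose from 2 to 7 wks, with 948 higher and 5392 lower among all genes. From E18.5 to 7 wks it gave 9 lower and 0 higher, with 2291 higher and 13297 lower overall in place of 6610 and 7145.

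**Figure D1:**
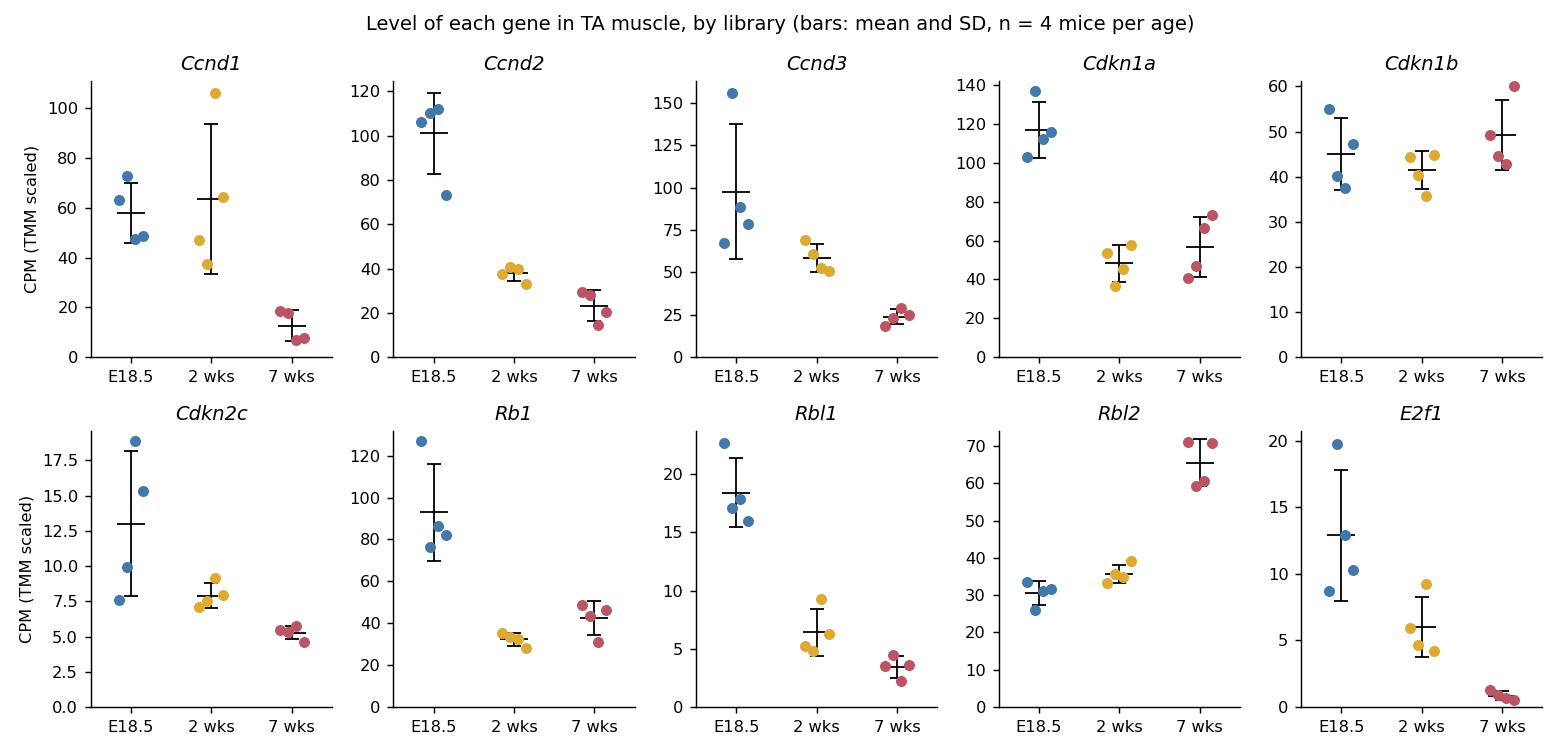
Level of each gene (CPM, TMM scaled, linear axis from 0) in each of the 12 libraries at E18.5, 2 wks and 7 wks, with points in the order of replicate number and bars for the mean and SD of 4 mice. *Rbl2* sits at 59.4 to 71.0 CPM at 7 wks, above all younger libraries, whereas *E2f1* lies at 0.528 to 1.28 CPM at 7 wks, below all younger libraries.

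*Ccnd1*, *Ccnd2* and *Ccnd3* encode the cyclins D1, D2 and D3. *Ccnd1* (ENSMUSG00000070348) lies on the minus strand of chromosome 7 of GRCm39, from 144483668 to 144493662. Its level in replicates 1 to 4 was 63.3, 72.8, 47.6 and 48.8 CPM at E18.5, 47.2, 37.6, 106 and 64.5 CPM at 2 wks, and 18.4, 17.9, 6.80 and 7.54 CPM at 7 wks. The libraries of E18.5 and 2 wks overlapped, with replicate 3 at 2 wks standing highest, and every 7 wks library was below all others. The log2 fold change to 2 wks was 0.13 (SE 0.36, adjusted p = 0.758), and *Ccnd1* then fell 5.04-fold to 7 wks (log2 fold change -2.33, SE 0.38, adjusted p = 0.000739). The change to 2 wks was -0.82 with total count scaling (adjusted p = 0.0417). Relative to the median of all genes it was 0.22 in TMM scaling and 0.20 in total count scaling, values that agree by construction. In TMM scaling the change to 2 wks was -0.22 (adjusted p = 0.604) without 2 wks replicate 3, whereas the fall to 7 wks passed in 12 of 12 fits that left out a library.

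The 7 wks libraries that were high in *Ccnd1* (replicates 1 and 2) were also those with the higher summed level of 8 fibroblast markers, which was 4350, 1814, 1377 and 1037 CPM in replicates 1 to 4. At E18.5 this sum was 12803, 15199, 11760 and 8247 CPM in replicates 1 to 4, and replicates 1 and 2 were also highest in *Ccnd1*. At 2 wks it was 6380, 6557, 6281 and 4719 CPM, and the order differed. Replicate 2, with the highest sum, was lowest in *Ccnd1* there, and replicates 3 and 4, with the lowest sums, were highest. No marker was at 0. All 8 markers fell from E18.5 to 7 wks, against 37.1% of all genes tested, and 7 of 8 fell after removal of the GC trend. The part of fibroblast RNA in the fall of *Ccnd1* was not tested.

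*Ccnd2* (ENSMUSG00000000184, chromosome 6, 127102125 to 127129156, minus strand) measured 106, 110, 112 and 73.3 CPM at E18.5, 37.4, 40.9, 39.9 and 33.1 CPM at 2 wks, and 29.6, 28.0, 14.7 and 20.3 CPM at 7 wks. The ages did not overlap. It fell 2.66-fold by 2 wks (log2 fold change -1.41, SE 0.21, adjusted p = 5.95e-05) and a further 1.63-fold by 7 wks (-0.71, SE 0.21, adjusted p = 0.0227). The later fall was past the threshold in 9 of 12 fits that left out a library, and its adjusted p reached 0.0679 without 7 wks replicate 4, 0.0617 without 2 wks replicate 2 and 0.0520 without 2 wks replicate 3.

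*Ccnd3* (ENSMUSG00000034165, chromosome 17, 47815767 to 47910624, plus strand) measured 67.5, 156, 88.5 and 78.4 CPM at E18.5, 69.4, 61.0, 52.5 and 51.1 CPM at 2 wks, and 18.4, 23.3, 29.3 and 24.7 CPM at 7 wks. Replicate 1 at E18.5 lay within the range of 2 wks, and replicate 2 at E18.5 stood far above the others. The log2 fold change to 2 wks was -0.74 (SE 0.24, adjusted p = 0.0136), and -0.42 (adjusted p = 0.0488) without E18.5 replicate 2. From 2 to 7 wks *Ccnd3* fell 2.44-fold, with a log2 fold change of -1.29 (SE 0.24, adjusted p = 0.00183). Over the whole period the log2 fold changes of the D cyclins were -2.20 for *Ccnd1*, -2.12 for *Ccnd2* and -2.03 for *Ccnd3*, differences smaller than their SE of 0.22 to 0.37. *Ccnd3* has 59.6% GC, and after a correction for transcript GC content in every library its changes were -1.96 by 2 wks and -0.98 afterwards. The corrected changes over the whole period were less alike, at -2.46 for *Ccnd1*, -2.15 for *Ccnd2* and -2.94 for *Ccnd3*.

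*Cdkn1a*, *Cdkn1b* and *Cdkn2c* encode the inhibitors. *Cdkn1a* (ENSMUSG00000023067, chromosome 17, 29309936 to 29319701, plus strand) makes p21, a classical target of p53 and of MyoD. It measured 103, 137, 112 and 116 CPM at E18.5, 53.5, 36.4, 45.4 and 57.5 CPM at 2 wks, and 40.7, 47.1, 66.3 and 73.1 CPM at 7 wks. All libraries of E18.5 were above the later ones, and those of 2 and 7 wks overlapped. It fell 2.42-fold by 2 wks (log2 fold change -1.28, SE 0.20, adjusted p = 9.54e-05), and the change from 2 to 7 wks was 0.24 (SE 0.20, adjusted p = 0.401), or -0.11 with total count scaling. At 7 wks it remained 2.06-fold below E18.5 (log2 fold change -1.04, SE 0.20, adjusted p = 0.000366).

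*Cdkn1b* (ENSMUSG00000003031, chromosome 6, 134897364 to 134902476, plus strand), the gene of p27, did not pass in any comparison of ages. Its level was 55.1, 40.1, 37.4 and 47.2 CPM at E18.5, 44.3, 40.4, 35.8 and 44.9 CPM at 2 wks, and 49.2, 44.6, 42.9 and 60.0 CPM at 7 wks, so that all ages overlapped. The log2 fold changes were -0.12 (SE 0.16, adjusted p = 0.512) by 2 wks and 0.25 (SE 0.16, adjusted p = 0.253) from 2 to 7 wks. Scaling to the total count gave -1.04 by 2 wks (adjusted p = 4.75e-05), and removal of the GC trend gave 0.32 (adjusted p = 0.0457). Relative to the median of all genes the change by 2 wks was -0.03 with TMM and -0.02 with total counts, but 0.54 after removal of the GC trend.

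*Cdkn2c* (ENSMUSG00000028551, chromosome 4, 109517957 to 109524386, minus strand), which encodes the INK4 inhibitor p18 of CDK4 and CDK6, measured 7.60, 9.94, 18.9 and 15.3 CPM at E18.5. It measured 7.06, 7.51, 9.13 and 7.93 CPM at 2 wks and 5.44, 5.30, 5.74 and 4.64 CPM at 7 wks. Replicates 3 and 4 at E18.5 were high, and replicates 1 and 2 lay in or near the range of 2 wks. The log2 fold change to 2 wks was -0.71 (SE 0.24, adjusted p = 0.0174), and that from 2 to 7 wks was -0.58 (SE 0.24, adjusted p = 0.0866). The earlier call was lost in 3 of 12 fits that left out a library, without E18.5 replicate 3 (-0.47, adjusted p = 0.0784), E18.5 replicate 4 (-0.62, adjusted p = 0.0506) or 2 wks replicate 1 (-0.63, adjusted p = 0.0540). The summed level of 6 adipocyte markers was 1926 and 2693 CPM in E18.5 replicates 3 and 4, 230 and 178 CPM in replicates 1 and 2, and 311 to 486 CPM in all later libraries, with no marker at 0. Replicates 3 and 4 were also left out together, a choice made once the data had been seen. This removed the highest E18.5 values of *Cdkn2c*, so a smaller fall was bound to follow. The change to 2 wks was then -0.15 on the log2 scale (adjusted p = 0.551). That from E18.5 to 7 wks was -0.73 (adjusted p = 0.00682), against -1.3 (adjusted p = 0.000278) with all libraries. The count of genes lower at 2 wks was then 6 of 10. The part of adipocyte RNA in the values of *Cdkn2c* was not tested.

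The pocket proteins moved apart with age. *Rb1* (ENSMUSG00000022105, chromosome 14, 73421113 to 73563507, minus strand) measured 127, 76.2, 86.3 and 82.3 CPM at E18.5, 35.4, 33.3, 32.3 and 28.2 CPM at 2 wks, and 48.9, 43.6, 30.8 and 46.5 CPM at 7 wks. Every library of E18.5 was above the later ones, and 7 wks replicate 3 lay within the range of 2 wks. *Rb1* fell 2.88-fold by 2 wks (log2 fold change -1.52, SE 0.19, adjusted p = 1.21e-05). The change from 2 to 7 wks was 0.39 (SE 0.18, adjusted p = 0.127), and 0.52 (adjusted p = 0.0414) without 7 wks replicate 3.

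*Rbl1* (ENSMUSG00000027641, chromosome 2, 156987813 to 157046475, minus strand) encodes p107, the pocket protein known for its presence in dividing cells. It measured 22.7, 17.1, 17.9 and 16 CPM at E18.5, 5.22, 4.82, 9.27 and 6.27 CPM at 2 wks, and 3.55, 4.47, 2.21 and 3.61 CPM at 7 wks, with no overlap between ages. It fell 2.88-fold by 2 wks (log2 fold change -1.53, SE 0.24, adjusted p = 0.000101) and 1.85-fold more by 7 wks (-0.89, SE 0.24, adjusted p = 0.0161). Without 2 wks replicate 3 the later change was -0.65 (adjusted p = 0.0564).

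*Rbl2* (ENSMUSG00000031666, chromosome 8, 91796664 to 91850492, plus strand), the gene of p130, measured 33.5, 26.1, 31.0 and 31.6 CPM at E18.5, 33.3, 35.7, 34.9 and 39.1 CPM at 2 wks, and 71.0, 59.4, 60.6 and 70.8 CPM at 7 wks. E18.5 and 2 wks overlapped by a single library, and all 7 wks libraries were above both. The log2 fold change by 2 wks was 0.23 (SE 0.12, adjusted p = 0.125), and from 2 to 7 wks *Rbl2* rose 1.83-fold (0.87, SE 0.13, adjusted p = 0.000327). It was the one gene of the 10 that rose, by 2.14-fold from E18.5 to 7 wks (1.1, SE 0.13, adjusted p = 3.53e-06). With total count scaling the same comparison gave -0.18 (adjusted p = 0.224), and the libraries of E18.5 and 7 wks overlapped. Relative to the median of all genes it was 1.19 in both scalings, which agree by construction. The rise from 2 to 7 wks was 0.53 and past the threshold with total counts too. The rise after 2 wks passed in 12 of 12 fits that left out a library.

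The promoters of *Rbl1* and *Rbl2* are shown because these relatives moved in opposite directions. RefSeq's promoter table (GRCm38.p6, 250 bases before to 50 after a start) held 10 promoters of 7 of the 10 genes. They were searched on both strands for the E2F site (TTTCCCGC, TTTGGCGC, TTTCGCGC or TTTGCCGC), the CHR element (TTTGAA) and the CCAAT box (CCAAT), of which none is contained in another. Of 32851 promoters of the same length, 2.26% held an E2F site, 17.9% a CHR element and 37.4% a CCAAT box. The 250 bases before the start of *Rbl1* (chr2:157204535-157204784, minus strand) and of *Rbl2* (chr8:91069807-91070056, plus strand) are written 5′ to 3′ with the match in capitals.
Rbl1: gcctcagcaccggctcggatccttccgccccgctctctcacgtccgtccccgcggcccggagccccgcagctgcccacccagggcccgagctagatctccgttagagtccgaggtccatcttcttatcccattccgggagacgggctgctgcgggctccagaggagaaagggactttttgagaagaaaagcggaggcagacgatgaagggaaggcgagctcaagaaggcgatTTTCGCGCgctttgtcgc
Rbl2: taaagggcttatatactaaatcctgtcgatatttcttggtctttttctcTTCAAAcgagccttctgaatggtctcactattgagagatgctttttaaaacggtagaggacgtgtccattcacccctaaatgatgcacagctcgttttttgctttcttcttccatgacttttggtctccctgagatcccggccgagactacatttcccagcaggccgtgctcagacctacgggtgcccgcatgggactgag
In *Rbl1* the capitals mark an E2F site (TTTCGCGC) that begins at base -18 from the start, and in *Rbl2* they mark a CHR element at base -201, read on the opposite strand as TTTGAA. Of the 7 genes searched, *Rbl1* was the only one with an E2F match and *Rbl2* the only one with a CHR match. CCAAT boxes were found in *Cdkn1b* (3 matches) and in 1 promoter each of *Ccnd3* and *Cdkn2c*. The *E2f1* promoter held none of the spellings. A match describes the letters in this window and says nothing about binding.

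*E2f1* (ENSMUSG00000027490, chromosome 2, 154401326 to 154411812, minus strand) encodes an activating E2F. It measured 8.68, 19.8, 12.9 and 10.3 CPM at E18.5, 5.95, 4.62, 9.26 and 4.19 CPM at 2 wks, and 1.28, 0.885, 0.659 and 0.528 CPM at 7 wks. Replicate 3 at 2 wks lay within the range of E18.5, and the 7 wks libraries, with 32 to 64 reads each, were below all others. It fell 2.15-fold by 2 wks (log2 fold change -1.11, SE 0.32, adjusted p = 0.00816) and 7.19-fold from 2 to 7 wks (-2.85, SE 0.36, adjusted p = 0.000124). Over the whole period this came to 15.5-fold (-3.95, SE 0.37, adjusted p = 5.30e-07), and the fall from E18.5 to 7 wks ranged from -4.21 to -3.67 when each library was left out in turn.

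**Figure D2:**
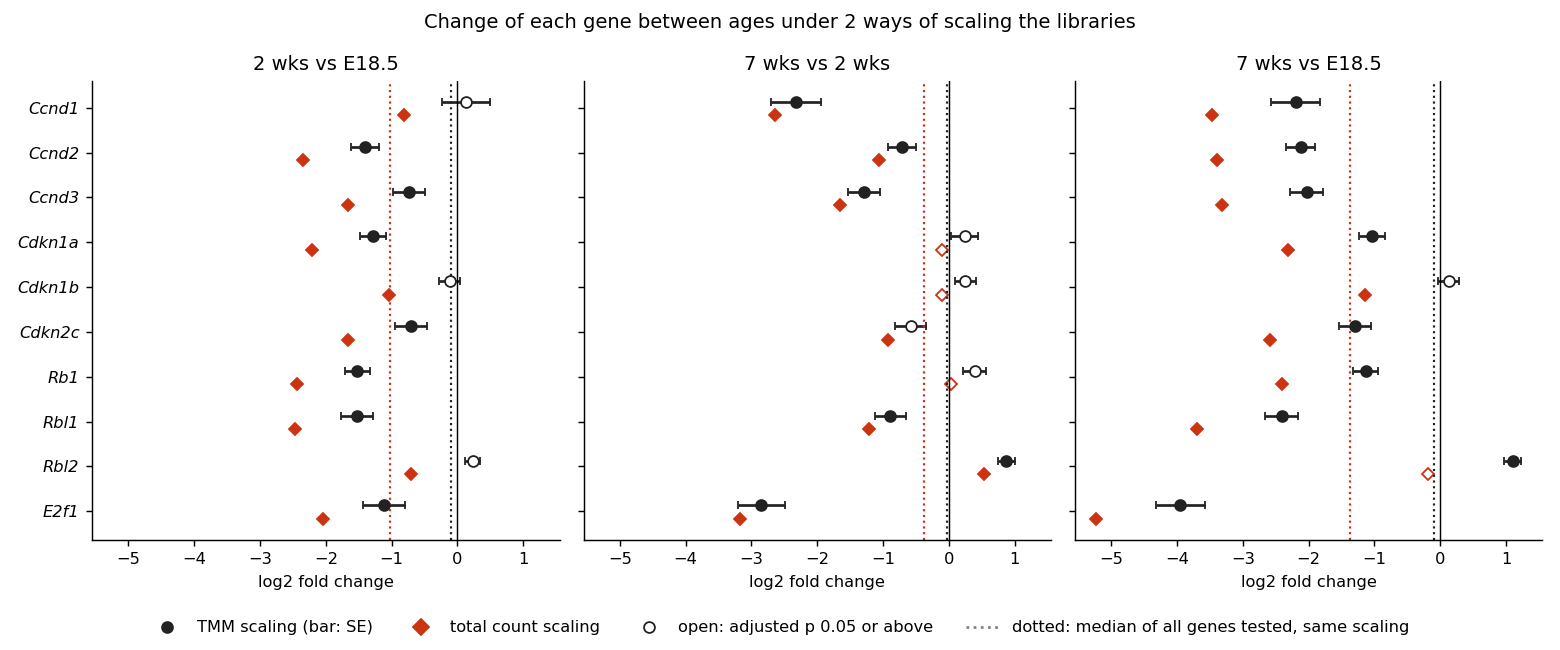
Log2 fold change of each gene in the 3 comparisons of ages with TMM scaling (circles, bars for SE) and with total count scaling (diamonds), filled where the adjusted p is under 0.05. Dotted lines mark the median of all genes tested in the same scaling, which lies at -0.09 with TMM and -1.36 with total counts for 7 wks against E18.5. *Rbl2* is to the right of it in both, as a gene and the median move together with the scaling.

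The pace of change differed between the intervals for 5 of the 10 genes, in a test of the log2 change from E18.5 to 2 wks minus that from 2 to 7 wks; 38.4% of all genes tested differed likewise. The intervals are of unequal length, so these are totals and not rates. *Cdkn1a* (difference -1.51, SE 0.36, adjusted p = 0.00540) and *Rb1* (-1.92, SE 0.33, adjusted p = 0.000891) fell mainly before 2 wks. *Ccnd1* (2.47, SE 0.60, adjusted p = 0.00649) and *E2f1* (1.74, SE 0.55, adjusted p = 0.0246) fell mainly after 2 wks. *Rbl2* differed by -0.65 (SE 0.22, adjusted p = 0.0322), its rise being later. The calls for *Rbl2* and *E2f1* were lost after removal of the GC trend (adjusted p = 0.234 and 0.591), and for *E2f1* also with total count scaling (adjusted p = 0.110) and without 2 wks replicate 3 (1.17, adjusted p = 0.126). For *Rbl2* the call was also lost without a filter (adjusted p = 0.082), and it was kept in 5 of 12 fits that left out a library. *Ccnd3* passed only after removal of the GC trend (-0.98, adjusted p = 0.00818) or without E18.5 replicate 2 (0.87, adjusted p = 0.0259). The count was 3 genes without E18.5 replicates 3 and 4, when *Rbl2* and *E2f1* did not pass (adjusted p = 0.0872 and 0.0693), and also 3 without 2 wks replicate 3.

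Ratios within a library compared relatives without any scaling. Reads were divided by the length of the Ensembl canonical transcript. The *Rbl2* to *Rbl1* ratio was 1.66 ± 0.224 at E18.5 (SD, n = 4). It came to 5.89 ± 1.53 at 2 wks and to 19.9 ± 5.76 at 7 wks. Its ranges were 1.46 to 1.95, 3.74 to 7.33 and 13.2 to 27.2, with no overlap. *Rbl2* to *Rb1* was 0.342 ± 0.0526, 1.13 ± 0.190 and 1.60 ± 0.274 at the successive ages. Here all libraries of E18.5 were below the later ones, while 2 wks (0.953 to 1.40) and 7 wks (1.38 to 2.00) overlapped. Accordingly *Rb1* made up 64.7% ± 2.84 of the summed mRNA level of the pocket protein genes at E18.5 (SD, n = 4) but 43.1% ± 4.08 by 2 wks and 37.6% ± 3.43 by 7 wks. The share of *Rbl2* was 22.0% ± 2.59, 48.3% ± 3.66 and 59.3% ± 4.06, and that of *Rbl1* 13.3% ± 0.937, 8.68% ± 2.55 and 3.14% ± 0.775. With the length of all annotated exons in place of the canonical transcript, an alternative added after seeing the data, the shares of *Rbl2* were 20.4%, 46.0% and 58.3%, and that of *Rbl1* at 7 wks was 4.93%. The *Rbl2* to *Rbl1* ratio was then 1.04, 3.68 and 12.4 at the successive ages, with an E18.5 range of 0.914 to 1.22 that included equal levels. These shares are descriptions, and no test was run on them.

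Among the D cyclins the balance was less stable between mice. *Ccnd1* to *Ccnd2* was 0.977 ± 0.188, 2.83 ± 1.28 and 0.873 ± 0.215 at the successive ages (SD, n = 4), and all 4 libraries of 2 wks (1.53 to 4.42) were above the highest of the other ages (1.11). *Ccnd3* had the highest mean share at every age (though less than *Ccnd1* in 2 wks replicate 3), at 59.6% ± 7.42, 56.6% ± 10.5 and 63.2% ± 13.2, although this rested on its short canonical transcript of 2018 bases. With the 9245 bases of all its annotated exons, the shares of *Ccnd3* were 31.0%, 28.1% and 35.6%, and *Ccnd1* had the highest mean share at E18.5 and 2 wks with 36.6% and 54.2%. The inhibitor shares were taken over *Cdkn1a*, *Cdkn1b* and *Cdkn2c* only. They left out *Cdkn1c*, at mean levels of 311, 102 and 15.7 CPM over the ages against 117, 48.2 and 56.8 CPM for *Cdkn1a*. Within this sum *Cdkn1a* made up 80.4% ± 3.16, 67.2% ± 3.69 and 69.1% ± 5.46 over the ages, and *Cdkn1b* 13.3% ± 3.25, 24.7% ± 2.95 and 26% ± 4.68. Replicate ranges of *Cdkn1b* shares at E18.5 (10.5 to 17.7%) did not meet those of 2 wks (22.6 to 29.0%) or 7 wks (20.5 to 31.8%). With all annotated exons as the length, *Cdkn1b* had the higher mean share from 2 wks on (49.8% against 43.3% for *Cdkn1a*, then 51.7% against 44.2%).

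**Figure D3:**
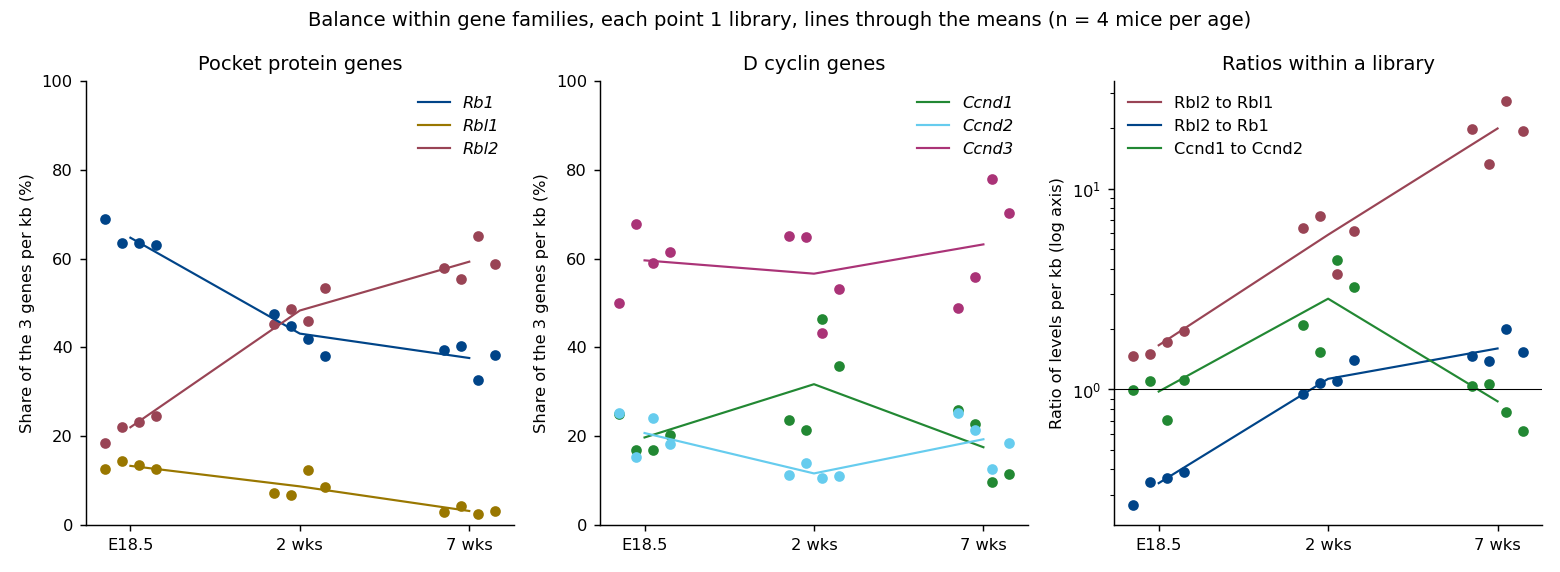
Share of each gene in the summed per-kilobase level of the pocket protein genes (left) and of the D cyclin genes (middle), and ratios of per-kilobase levels within a library (right, log axis), at E18.5, 2 wks and 7 wks. Each point is a library, lines join the means, and the *Rbl2* to *Rbl1* ratio goes from 1.46 to 1.95 at E18.5 to 13.2 to 27.2 at 7 wks.

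Levels per kilobase of canonical transcript (CPM per kb) gave the order of the genes at each age. At E18.5 *Cdkn1a* (60.8 ± 7.45, SD, n = 4) and *Ccnd3* (48.4 ± 19.8) led and overlapped each other. *Rb1*, *Ccnd2* (15.9) and *Ccnd1* (15.3) came next and overlapped, followed by *Cdkn1b* (9.88) and *Rbl2* (6.18), each apart from its upper neighbour. *Cdkn2c* (4.81), *E2f1* (4.73) and *Rbl1* (3.76) closed the list, and each overlapped the gene before it. At 2 wks *Ccnd3* (29.0 ± 4.20), *Cdkn1a* (25.1 ± 4.86) and *Ccnd1* (16.8 ± 7.92) were at the top, each overlapping the next. *Cdkn1b* (9.09), *Rbl2* (7.22), *Rb1* (6.45) and *Ccnd2* (5.97) formed an overlapping middle. At 7 wks *Cdkn1a* (29.5 ± 7.98) stood apart from *Rbl2* (13.2 ± 1.28), *Ccnd3* (11.8 ± 2.22), *Cdkn1b* (10.8 ± 1.69) and *Rb1* (8.47 ± 1.61). *Ccnd2* (3.66), *Ccnd1* (3.34) and *Cdkn2c* (1.96) were lower, and *Rbl1* (0.706) and *E2f1* (0.307) were last. The order depended on the length used. Per kilobase of all annotated exons, *Cdkn1a* (19.3 CPM per kb) led *Ccnd1* (12.2) at E18.5, *Ccnd1* (13.3) led *Cdkn1b* (9.09) at 2 wks with *Ccnd3* at 6.33, and *Cdkn1b* (10.8) led *Cdkn1a* (9.4) and *Rbl2* (5.52) at 7 wks.

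Partners of the D cyclins and other regulators were described by lists. Over all genes tested, 34.2% fell and 31.5% rose by 2 wks, and 13.9% fell and 13.5% rose from 2 to 7 wks. The medians of all genes were -0.09 and -0.03. With total count scaling, 2550 of 19276 genes rose and 11923 fell by 2 wks, and 948 rose and 5392 fell from 2 to 7 wks. Of 12 other G1 kinases and cyclins, 9 fell, 2 rose and 1 did not pass from E18.5 to 2 wks (median log2 fold change -0.91), and 4 fell and 2 rose from 2 to 7 wks (median -0.06). The kinase partners *Cdk4* (86.7 ± 24.6, 50.5 ± 5.25 and 34.2 ± 6.23 CPM at the successive ages, SD, n = 4) and *Cdk6* (22.9 ± 3.03, 8.49 ± 0.723 and 4.91 ± 1.5 CPM) fell in both intervals. The largest falls by 2 wks were those of the E cyclins, which act after the D cyclins, with -3.29 (SE 0.21, adjusted p = 6.05e-08) for *Ccne1* and -2.41 (SE 0.23, adjusted p = 1.49e-06) for *Ccne2*. *Ccne2* then rose by 0.73 (SE 0.22, adjusted p = 0.0253) to 7 wks, unlike *Ccne1* (-2.43), although its libraries of 2 and 7 wks overlapped. With total count scaling 0 genes of this list rose from 2 to 7 wks. The largest rise by 2 wks was that of *Ccng1*, a p53 target, from 288 ± 99.3 to 839 ± 47.5 CPM (1.54, SE 0.23, adjusted p = 6.96e-05). Next came *Cdk5*, a kinase of postmitotic cells (0.42, SE 0.16, adjusted p = 0.0308, but -0.51 with total count scaling and -0.10 after removal of the GC trend).

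Of 5 other CDK inhibitor genes, 4 were tested, with 2 lower and 1 higher in each interval. *Cdkn1c*, the imprinted gene of p57, measured 311 ± 90.1, 102 ± 50.1 and 15.7 ± 2.47 CPM at the successive ages (SD, n = 4), with log2 fold changes of -1.60 (SE 0.31, adjusted p = 0.000476) and -2.71 (SE 0.32, adjusted p = 8.98e-05). *Cdkn3*, a phosphatase of CDKs, had log2 fold changes of -1.64 and then -3.56. *Cdkn2b* (p15), at 0.175, 0.328 and 0.874 CPM, rose in both intervals at very low levels, by 0.90 (adjusted p = 0.0488) and 1.40 (adjusted p = 0.0133), the first of which was not higher with total count scaling. *Cdkn2d* (p19) was at 10.3, 14.5 and 13.4 CPM and did not pass.

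Of 9 other E2F and DP factors, 5 fell and 2 rose by 2 wks, and 3 fell and 3 rose after. The atypical repressors *E2f8* (-2.14, SE 0.25, adjusted p = 6.73e-06) and *E2f7* (-1.89, SE 0.27, adjusted p = 4.51e-05) showed the largest falls by 2 wks. They fell further to 0.408 ± 0.104 and 0.823 ± 0.229 CPM at 7 wks (SD, n = 4). The largest rises were those of *E2f6* (0.91, SE 0.17, adjusted p = 0.000380), a repressor that acts without pocket proteins, and *E2f4* (0.47, SE 0.20, adjusted p = 0.0467), the usual partner of p130. Neither rise held with total count scaling (-0.04 and -0.48), and that of *E2f4* was -0.39 after removal of the GC trend. From E18.5 to 7 wks *E2f6* went from 59.8 to 247 CPM (log2 fold change 2.04) and *E2f4* reached 36.2 CPM (0.97). With total count scaling 1 gene of this list was higher in that comparison. The libraries of the ages then overlapped for *E2f4* but not for *E2f6*.

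The DREAM complex joins p107 or p130 and E2F4 to the MuvB core to repress cell cycle genes in quiescence. Of 8 tested genes of its partners, 5 fell and 2 rose by 2 wks, and 3 fell and 2 rose after. *Mybl1* (-1.98, SE 0.33, adjusted p = 0.000139) and the histone binder *Rbbp4* (-1.27, SE 0.14, adjusted p = 5.18e-06) showed the largest falls, and the core subunits *Lin37* (0.70, SE 0.21, adjusted p = 0.00801) and *Lin52* (0.43, SE 0.14, adjusted p = 0.0153) the largest rises. With total count scaling 0 genes of this list rose, and *Lin37* was at -0.23, as it was at -0.16 after removal of the GC trend. *Dyrk1a*, the kinase that promotes assembly through LIN52, was at 70.0, 69.5 and 114 CPM and rose after 2 wks (0.72, SE 0.16, adjusted p = 0.00585). With total count scaling 0 genes of this list passed as higher from 2 to 7 wks, although every 7 wks library of *Dyrk1a* stayed above those of 2 wks. The proliferation factors *Mybl2* (-2.99) and *Foxm1* (-3.02), which take the place of pocket proteins on MuvB in dividing cells, fell most from 2 to 7 wks.

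Protein turnover genes of p27 and the D cyclins were mixed, with 3 higher, 2 lower and 5 not passing of 10 by 2 wks. *Skp2* (from 31.0 ± 5.78 to 4.78 ± 0.471 CPM, log2 fold change -2.70, SE 0.22, adjusted p = 3.94e-07) and its cofactor *Cks1b* (-1.05, SE 0.24, adjusted p = 0.00146), which mark p27 for destruction, fell by 2 wks and again by 7 wks. *Fbxo31*, an adaptor of cyclin D1 degradation, went from 14.3 ± 6.30 to 106 ± 12.7 and 163 ± 52.6 CPM (SD, n = 4), with 2.89 (SE 0.30, adjusted p = 3.05e-06) by 2 wks. *Ambra1*, the adaptor that marks all D cyclins, rose by 0.65 (SE 0.14, adjusted p = 0.000809), but its change was -0.27 with total count scaling and 0.04 after removal of the GC trend. In total count scaling the list had 1 gene higher and 8 lower, while 2550 of all 19276 genes tested were higher and 11923 lower.

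Of 15 other p53 target genes, 8 rose, 3 fell and 4 did not pass by 2 wks (median 0.37), a split that became 3 higher and 8 lower with total count scaling and 4 higher and 3 lower after removal of the GC trend. Over all 19276 genes tested, total count scaling gave 2550 higher and 11923 lower, and removal of the GC trend 5278 higher and 7505 lower. *Aen* (2.32, SE 0.25, adjusted p = 3.46e-06) and *Phlda3* (2.18, SE 0.63, adjusted p = 0.00738) rose most, whereas *Pmaip1* (-3.49, SE 0.51, adjusted p = 4.59e-05) and *Eda2r* (-1.24, SE 0.40, adjusted p = 0.0145) fell most. Libraries of E18.5 and 2 wks overlapped for *Phlda3* (10.3 ± 3.27 and 46.5 ± 43.5 CPM, SD) and *Eda2r*, but not for *Aen* and *Pmaip1*. *Ccng1* stands in this list and in that of G1 kinases and cyclins. From 2 to 7 wks 2 rose and 1 fell. *Cdkn1a* itself fell by 2 wks, as given above.

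Most E2F target genes of S phase fell in both intervals. By 2 wks 18 of 20 fell, 0 rose, and *Tk1* (-0.54) and *Cdt1* (-0.67) did not pass. From 2 to 7 wks 16 fell and 0 rose, and from E18.5 to 7 wks 20 of 20 fell, with a median of -3.35. Falls by 2 wks were largest for *Pola1*, a subunit of DNA polymerase alpha (-2.51, SE 0.28, adjusted p = 4.63e-06), and *Ccna2*, cyclin A2 (-2.38, SE 0.39, adjusted p = 0.000133). Of 10 mitotic markers, 9 fell by 2 wks, with the largest falls in *Ccnb1* (-2.80, SE 0.35, adjusted p = 1.42e-05) and *Bub1* (-2.68, SE 0.30, adjusted p = 6.16e-06), and 10 of 10 fell from 2 to 7 wks. Their median was -1.78 in the first interval and -3.79 in the second. Among all genes tested, 34.2% fell by 2 wks, 13.9% from 2 to 7 wks and 37.1% from E18.5 to 7 wks. With total count scaling 20 of 20 S phase genes and 10 of 10 mitotic markers fell by 2 wks. That scaling lowered the median of all genes from -0.09 to -1.02, with 11923 of 19276 genes lower, so the falls were bound to remain.

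**Figure D4:**
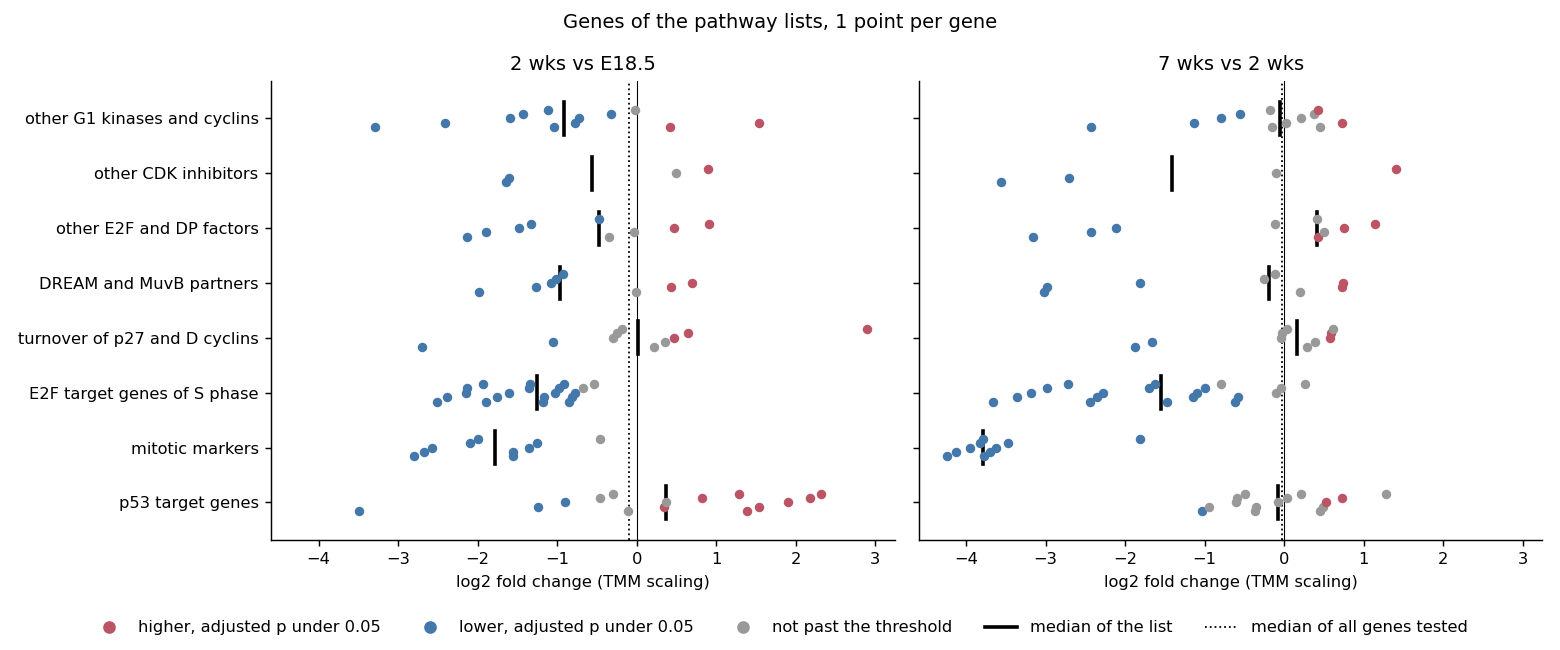
Log2 fold change (TMM scaling) of the genes of the pathway lists for 2 wks against E18.5 (left) and 7 wks against 2 wks (right), 1 point per gene, colored by direction where the adjusted p is under 0.05. Thick bars mark the median of a list and the dotted line that of all genes tested; the bar of the mitotic markers is at -1.78 on the left and -3.79 on the right.

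Markers of other cells moved over the same ages. Of all genes tested, 34.2% fell by 2 wks, 13.9% from 2 to 7 wks and 37.1% from E18.5 to 7 wks. Of 7 markers of myogenic cells, which include dividing satellite cells and myoblasts, 4 fell by 2 wks, 4 fell from 2 to 7 wks and 0 rose. Their sum was 142 to 279 CPM, 99.4 to 178 CPM and 44.4 to 66.7 CPM at the successive ages. Of 7 macrophage and leukocyte markers, 3 fell by 2 wks, 1 rose (*C1qa*, 1.29, SE 0.35, adjusted p = 0.00484) and 3 did not pass. From 2 to 7 wks 4 of them fell, and from E18.5 to 7 wks 5 fell. Their sums were 190 to 239, 102 to 136 and 41.7 to 113 CPM at the successive ages. No marker of these lists was at 0 at any age. The part of these cells in the falls of *Ccnd2*, *Rbl1*, *E2f1* and the S phase and mitotic genes was not tested.

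The genes most like each of the 10 were sought by Pearson correlation of log2 CPM over the 12 libraries. Compared were 8809 protein-coding genes whose mean log2 CPM reached 3. The points share their age groups and scaling, so the coefficients describe this series only. *E2f1* was closest to *Mcm5*, a helicase subunit (r = 0.990), and *Tubb5* (r = 0.986), and *Rbl1* to *Smc2*, a condensin subunit (r = 0.990), and *Atad2* (r = 0.987). *Rb1* was closest to *Nucks1* (r = 0.991) and *Tug1* (r = 0.988), *Rbl2* to *Rmnd5a* (r = 0.987) and *Elac1* (r = 0.981), and *Ccnd2* to *Tmem164* (r = 0.992) and *Eif2ak3* (r = 0.990). For *Ccnd3* they were *P3h4* (r = 0.988) and *Nlgn2* (r = 0.986), for *Ccnd1* *Ehd4* (r = 0.966) and *Endod1* (r = 0.939), and for *Cdkn2c* *Tkt* (r = 0.948) and *Rab3d* (r = 0.946). *Cdkn1a* was closest to *Phf13* (r = 0.928) and *Scfd2* (r = 0.921). *Cdkn1b* had the weakest matches, *Cep85l* (r = 0.878) and *2700097O09Rik* (r = 0.834).

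Annotated neighbours overlap several of these genes on the opposite strand in GENCODE vM39. *LTO1* covers 48.4% of the exon bases of *Ccnd1* (2315 bases) and *Aktip* covers 35.4% of those of *Rbl2* (4194 bases). For the other 8 genes no overlapping gene covers more than 8.3%, the share of *Dino* in *Cdkn1a*. The libraries were prepared with a stranded kit, but the strand setting of the counting is not given in the sources used here, so how reads in these overlaps were assigned is unknown. The values of *Ccnd1* and *Rbl2* carry this limit.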

How the data were processed

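RNAseq of TA muscles of wild-type 129Pas mice at E18.5, 2 wks and 7 wks was analysed (n = 4 mice/age, 12 libraries). Stranded polyA libraries were read as paired ends of 100 bp. The authors deposited raw read counts per Ensembl gene. The submitters' processing notes name bcl2fastq 2.17.1.14, cutadapt 1.10, STAR 2.5.3a, HTSeq 0.6.1p1 and the build mm10, whereas the paper's methods name GRCm39, so the build behind the counts is uncertain. Annotation and strand setting of the counting are not given in the sources used here. Of 55450 identifiers, 51477 were found in GENCODE vM39 (GRCm39), which gave symbols, positions, lengths and overlaps, and promoters came from RefSeq.

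Counts were normalized with TMM and fitted in R 4.3.3 by quasi-likelihood (edgeR 4.0.16 on limma 3.58.1), with age as sole term in a single fit of the 12 libraries. Genes with few reads (36174) were dropped by filterByExpr, and 19276 remained. Benjamini-Hochberg adjustment covered every gene tested, and 0.05 was the threshold. The biological coefficient of variation was 0.279, and with 63018968 to 123449246 reads per library sampling of reads added little to the spread among mice, other than for *E2f1* at 7 wks. The labels do not say whether mice shared a litter, so p-values measure the spread between these samples. No library was a copy of another: the 18 pairs within an age had chi-square values of 34.5 to 618 per degree of freedom. The scripts were tested on simulated counts. Tables and figures were made with Python 3.11.15, pandas 2.3.3 and matplotlib 3.10.9.

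The 10 genes, the pathway lists and the marker lists were chosen with earlier results of these data known. The 10 genes were all named; of each pathway list with 5 or more genes past the threshold, the 2 largest rises and falls by 2 wks were named, along with the 2 protein-coding genes most correlated with each of the 10. Other list genes were open to naming. *Lin54* and *Lor* were not matched by symbol. The fit was repeated with DESeq2 1.42.0, with total count or upper-quartile scaling, with TMM computed without mitochondrially encoded genes and the 20 most abundant ones, unfiltered or with a minimum of 10 counts per library, with a replicate block, on the 8 libraries of a comparison alone, after removal of the GC trend (GC content known for 98.7% of genes tested), and leaving out single libraries. Chosen once the data had been seen were E18.5 libraries 3 and 4 left out together and the length of all annotated exons.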

Additional observations from a re-analysis of the deposited data

Results flagged for a closer look

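*Ccnd2* was 73.3 CPM in E18.5 replicate 4, against 106 to 112 CPM in the other 3 libraries of that age. The gap to the nearest library was 0.845 of the whole range, above Dixon's critical value for 4 samples. Of 30 groups of 4 libraries examined (10 genes at 3 ages), 1 was set apart in this way, and chance alone would give 1.5. Its value was nevertheless above all libraries of 2 wks, which reached 40.9 CPM.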

How the results depend on the processing

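Of 153 recomputed counts of G1 control genes, 146 stayed within 1.5 times the reported count, and of 870 recomputed values of single genes, 814 kept their direction and their side of the threshold. The 1.5 times limit also covers the 10 in place of 7 genes lower by 2 wks with total count scaling. Of 57 recomputed mean levels and shares, 15 stayed the same and 42 moved, for levels by at least the SD of the age. The cause of the changes below was not tested. With total count scaling, the count higher from E18.5 to 7 wks was 0 in place of 1. Log2 fold changes by 2 wks were then -0.82 for *Ccnd1* and -0.71 for *Rbl2*, those from 2 to 7 wks were -0.11 for *Cdkn1a* and -0.10 for *Cdkn1b*, those from E18.5 to 7 wks were -1.14 for *Cdkn1b* and -0.18 for *Rbl2*, and the difference of the intervals was -0.0 for *Ccnd3*. Upper-quartile scaling gave -0.01 for *Ccnd1* by 2 wks and -0.12 for *Cdkn1b* from E18.5 to 7 wks, which was -0.04 with at least 10 counts in every library. After removal of the GC trend the count higher was 2 by 2 wks in place of 0 and 2 from E18.5 to 7 wks in place of 1 (*Cdkn1b* and *Rbl2* in both). In that setting *Ccnd1* was at -0.05 and *Cdkn1b* at 0.32 by 2 wks, and the differences of the intervals were -0.98 for *Ccnd3*, 0.30 for *Cdkn1b* and 0.07 for *Rbl1*. Without E18.5 replicates 3 and 4, 3 genes in place of 5 differed between the intervals, *Ccnd1* was at -0.10 by 2 wks and the difference of *Cdkn2c* was 0.43.

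When each library was left out in turn, the count higher from 2 to 7 wks was 1 to 2 (2 without 7 wks replicate 3, with *Rb1*), the count lower was 3 to 6 (3 without 2 wks replicate 3, when *Ccnd2* and *Rbl1* did not pass), and the count that differed between the intervals was 3 to 6 (3 without 2 wks replicate 3). The log2 fold change of *Ccnd1* by 2 wks ranged from -0.22 to 0.33 and the difference of the intervals of *Cdkn2c* from -0.32 to 0.11. Libraries with the same replicate number were not shown to be paired, since their deviations from the age means correlated by -0.283 to 0.514 and over 0.1 in 5 of 12 pairs. With the replicate number as a block, the counts were 7 lower by 2 wks, 5 lower and 1 higher from 2 to 7 wks, and 8 lower and 1 higher from E18.5 to 7 wks, as reported. Of the 1056 counts recomputed for the other lists, 936 stayed within 1.5 times. Depth limits mainly *E2f1* at 7 wks, which had 32 to 64 reads per library.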

Other observations

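Markers of further cell types were not used in the comparisons. Among all genes tested, 31.5% rose and 34.2% fell by 2 wks, and 13.5% rose and 13.9% fell from 2 to 7 wks. Endothelial markers rose by 2 wks, with 5 of 7 higher and a sum that went from 369 to 540 CPM at E18.5 to 944 to 1103 CPM at 2 wks and 625 to 896 CPM at 7 wks. With total count scaling 3 of these 7 were higher and 1 was lower. Of 6 Schwann cell markers, 2 rose and 2 fell by 2 wks and 4 fell from 2 to 7 wks, and their sum was 631 CPM in 2 wks replicate 1 against 135 to 242 CPM in the other libraries of that age. Cartilage and bone markers summed to 145 CPM in E18.5 replicate 2, against 25.1 to 62.6 CPM in the other libraries of that age, and to 1.81 to 3.73 CPM at 7 wks. The same library was highest in *Ccnd3* (156 CPM) and *E2f1* (19.8 CPM) among those of E18.5, and it had an epidermis sum of 54.7 CPM against 6.46 to 16.4 CPM. Red blood cell markers summed to 242 to 1026 CPM at E18.5, 146 to 756 CPM at 2 wks and 92.0 to 130 CPM at 7 wks. The part of these cells in the values of the G1 control genes was not tested.

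Without E18.5 replicate 2, the log2 fold change of *E2f1* by 2 wks was -0.82 (adjusted p = 0.0321, edgeR), and the count of G1 control genes lower by 2 wks was the same as reported.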
